A study of Mus musculus with 26 samples.

Results

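Srebf2, Insig1, Hmgcs1, Idi1, Fdps, Sqle and Lss are 7 genes of sterol synthesis and of its transcriptional control, described here in adipocytes and in stromal vascular cells (SVC) of mouse epididymal fat under 3 diets. They were taken by symbol from the 39017 genes of each deposited count table, and each symbol matched 1 gene. All mice were male C57BL/6J animals without a genetic change, 9 to 10 weeks old when the diets began. LFD mice received a 10% fat diet for 12 weeks, HFD mice a 60% fat diet for 12 weeks, and SW mice the HFD for 9 weeks and then the LFD for 3 weeks, so that HFD and SW mice share the first 9 weeks. The fat was digested with collagenase, the floating adipocytes were taken off, and the pelleted SVC were treated to lyse red cells. RNA sequencing of 9 adipocyte libraries, 3 per diet, and of 6 SVC libraries, 1 for LFD, 2 for HFD and 3 for SW, was used. Which mouse gave which column is not stated in the sources used here, so p-values measure the spread between these libraries.

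Cells make cholesterol from acetyl-CoA through mevalonate, isoprenoid diphosphates, squalene and lanosterol. SREBP2, the product of Srebf2, is a transcription factor held in the endoplasmic reticulum membrane. When membrane sterol is low, the escort protein SCAP carries it to the Golgi, where proteases release its active part, which switches on the genes of the pathway. INSIG proteins hold SCAP back when sterol is plentiful, and Insig1 is itself a target gene. Adipocytes store much free cholesterol in and around the lipid droplet and take up more from lipoproteins.

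SREBP2 and its partners are known to act through elements in the regions before the start sites of target genes. Printed here are 4 such regions. They are those of Srebf2 and Lss, which were called between diets in adipocytes, and of Insig1 and Hmgcs1, the most abundant of the 7 there. The RefSeq promoter table (GRCm38.p6) held 5 of the 7 genes, Srebf2, Insig1, Hmgcs1, Idi1 and Lss. The 250 bases before each start were searched on both strands for TCACNCCAC, a form of the sterol regulatory element, for CCAAT, bound by NF-Y, and for GGGCGG, bound by Sp1. These motifs share no stretch that makes one a part of another. All 4 regions are on the plus strand, run 5′ to 3′ and stop before the gene as GENCODE M21 annotates it, and capitals mark the matches, read as ATTGG or CCGCCC where the match is on the minus strand. The regions are chr15:82147019-82147180 for Srebf2, chr5:28071162-28071362 for Insig1, chr13:119690101-119690350 for Hmgcs1 and chr10:76531355-76531587 for Lss.
Srebf2: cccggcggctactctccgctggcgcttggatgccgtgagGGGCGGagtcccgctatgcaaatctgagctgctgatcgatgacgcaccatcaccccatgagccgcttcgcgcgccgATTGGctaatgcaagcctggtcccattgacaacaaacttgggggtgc
Insig1: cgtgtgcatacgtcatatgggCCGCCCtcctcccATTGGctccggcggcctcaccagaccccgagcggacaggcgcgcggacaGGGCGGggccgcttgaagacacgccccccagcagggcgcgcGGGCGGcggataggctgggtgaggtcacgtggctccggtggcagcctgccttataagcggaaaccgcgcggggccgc
Hmgcs1: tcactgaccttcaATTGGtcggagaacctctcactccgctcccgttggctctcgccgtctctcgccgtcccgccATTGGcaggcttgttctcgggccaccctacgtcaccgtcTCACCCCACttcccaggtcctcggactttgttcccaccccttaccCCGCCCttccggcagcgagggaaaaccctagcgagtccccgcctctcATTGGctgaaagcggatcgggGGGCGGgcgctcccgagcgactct
Lss: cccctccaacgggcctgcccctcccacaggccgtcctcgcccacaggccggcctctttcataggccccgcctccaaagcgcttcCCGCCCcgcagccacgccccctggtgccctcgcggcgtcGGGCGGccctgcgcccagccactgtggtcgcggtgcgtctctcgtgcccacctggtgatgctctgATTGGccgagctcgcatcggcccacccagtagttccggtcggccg
TCACNCCAC was found before Hmgcs1 alone of the 5 genes, from 137 to 129 bases before the start, and in 1.05% of the 32851 promoter windows of the same length. CCAAT was found before all 5 genes, at 8 places, and each of the 8 matches was on the minus strand; 33.8% of all windows hold it. GGGCGG was found before all 5 genes at 12 places, 5 of them on the minus strand, and in 32.7% of all windows. Srebf2 had 4 GGGCGG matches, of which the 3 nearest the start lie past the printed stretch, and Hmgcs1 had 3 CCAAT matches. The 2 CCAAT and 1 GGGCGG matches of Idi1 all lie within the gene as GENCODE M21 annotates it. A match describes letters and not binding.

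The libraries held 5781902 to 23725647 counts. Levels are in CPM, counts relative to the size of the library, and TMM factors put libraries of 1 fraction on a common scale. Changes are log2 fold changes with their standard error from the quasi-likelihood test of edgeR, with p-values adjusted over all genes tested by the Benjamini-Hochberg method. A gene was called at an adjusted p-value under 0.05. The 10 adipocyte markers summed to 13823 to 61917 CPM in adipocyte and 684 to 1325 CPM in SVC libraries, and the 11 macrophage markers to 5798 to 15888 CPM in SVC libraries. The adipocyte libraries also held macrophage RNA, at a sum of 613 to 1032 CPM in LFD, 7333 to 8721 CPM in HFD and 5228 to 7570 CPM in SW mice. All 11 rose with HFD. None of the 11 was at 0 in any library, while 8 of the 10 adipocyte markers fell. Of the other lists, 3 of 5 endothelial and 3 of 4 mesothelial markers fell with HFD in adipocytes, 2 of 5 progenitor and fibroblast markers rose, and none of 4 T cell markers tested or of 4 B cell markers passed. From HFD to SW in SVC, 2 macrophage markers and 1 adipocyte marker fell and no marker of the other 5 lists passed. In these bulk samples a change in the cells present and a change of RNA per cell cannot be told apart. The 2 SVC HFD libraries stood apart from each other, with 6.34% and 33.5% mitochondrial counts, 0.287% and 3.09% hemoglobin counts and a chi-square per degree of freedom of 408, against 28.0 to 65.4 between SW libraries.

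**Figure D1:**
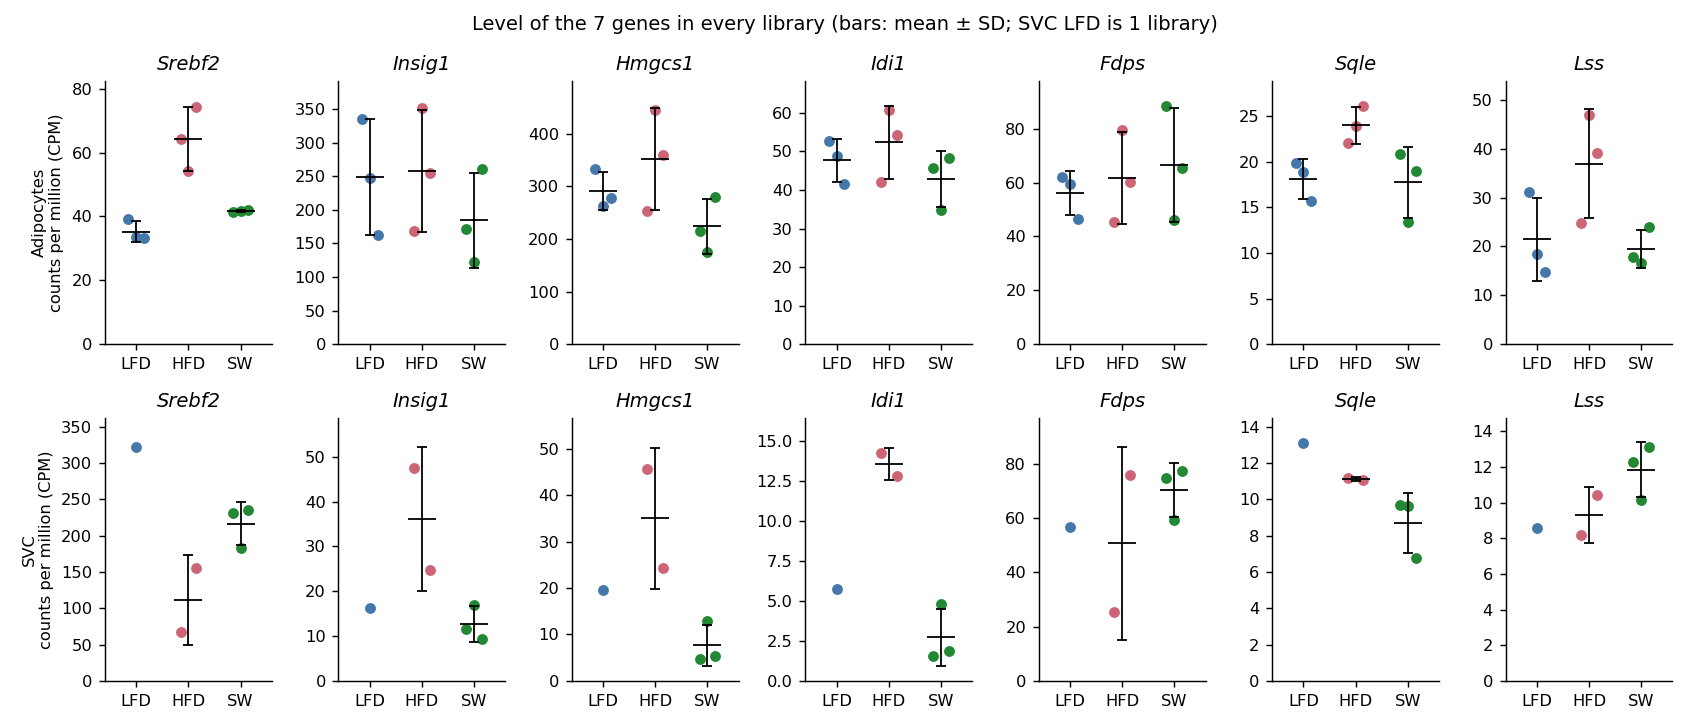
CPM of each of the 7 genes (y axis, from 0) in every adipocyte library (top) and SVC library (bottom) by diet; points are libraries and bars the mean ± SD. Srebf2 in adipocytes lay between 54.2 and 74.2 CPM in HFD and at 42.1 CPM or lower in all other libraries, whereas in SVC its highest value was the 322 CPM of the LFD library.

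Per kilobase of the longest annotated transcript, Insig1 and Hmgcs1 were the most abundant of the 7 genes in adipocytes. In LFD mice Insig1, the sterol-dependent anchor of SCAP, had a mean of 92.1 CPM per kb, and Hmgcs1, the cytosolic enzyme that makes HMG-CoA, 84.1 CPM per kb. These placed both genes at the 94.8th and 94.2nd percentile of the genes tested, and their ranges of 60.4 to 124 and 76.0 to 95.9 CPM per kb overlapped. Fdps, which makes farnesyl diphosphate, followed at 19.0 CPM per kb and Idi1, the isomerase that supplies dimethylallyl diphosphate, at 15.7 CPM per kb, again with overlapping ranges. Srebf2 lay at 6.94 CPM per kb, separate from its neighbours in that order. Sqle, the squalene epoxidase, and Lss, the lanosterol synthase that closes the ring system, were lowest at 4.05 and 3.07 CPM per kb, and their ranges overlapped. The 2 SVC HFD libraries did not share one order. In one, Srebf2 was at 30.5, Fdps at 25.7, Insig1 at 9.18 and Hmgcs1 at 7.01 CPM per kb. In the other, Insig1 was highest at 17.6, and Srebf2, Hmgcs1 and Fdps followed at 13.2, 13.2 and 8.64 CPM per kb. The ranges of these 4 genes thus overlapped. Lss was lowest in SVC of HFD mice, at a mean of 1.33 CPM per kb, and Idi1 in SVC of SW mice, at 0.903 CPM per kb. Transcript lengths come from GENCODE M21 and not from the authors' annotation.

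In adipocytes, 2 of the 7 genes, Srebf2 and Lss, rose with HFD. Of all 14461 genes tested 51.5% were called, 26.5% higher and 25% lower in HFD, so that the number of rises among the 7 is near that share of all genes. The median log2 fold change of the 7 genes was 0.28, against -0.03 for all genes. HFD and LFD libraries did not overlap for 2 of the 7 genes, Srebf2 and Sqle, and for 62.7% of all genes.

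Srebf2 rose most. It was measured at 39.2, 33.5 and 33.1 CPM in the LFD libraries, at 64.1, 54.2 and 74.2 CPM in the HFD libraries and at 41.5, 41.7 and 42.1 CPM in the SW libraries. Every HFD library lay above every other adipocyte library, and the 3 SW libraries were nearly equal. The log2 fold change from LFD to HFD was 0.87 ± 0.13, a 1.82-fold rise (edgeR adjusted p = 0.00047), and each of the 9 fits that left out 1 library and the other 8 alternatives kept the call. From HFD to SW, Srebf2 fell by 0.62 on the log2 scale (SE 0.13, edgeR adjusted p = 0.0094), again with the call kept in all of them. SW libraries stayed above all LFD libraries by 0.25 ± 0.13, which did not pass the test (edgeR adjusted p = 0.23). Of the 7 genes only Srebf2 was called higher in SVC than in adipocytes. All 11 macrophage markers rose with HFD in adipocytes, and 5 of them fell from HFD to SW. In SW against LFD all 11 were still called higher, at a median of 2.57, where Srebf2 was at 0.25 and not called. The part of macrophage RNA in the change of Srebf2 was not tested.

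Lss was measured at 31.1, 18.5 and 14.8 CPM in LFD, at 24.9, 46.8 and 39.1 CPM in HFD and at 17.8, 16.7 and 24.0 CPM in SW libraries. The highest LFD library lay above the lowest HFD library, so these groups overlapped, while all SW libraries lay below all HFD libraries, by a small margin. The rise to HFD was 0.80 ± 0.29 (edgeR adjusted p = 0.042), and from HFD to SW Lss fell by 0.93 (SE 0.29, edgeR adjusted p = 0.036). Each of these calls was lost in 4 of the 9 fits that left out 1 library, with adjusted p-values of up to 0.14 and 0.093. These included the fits without either of the 2 HFD libraries with more Lss, where the rise was 0.62 and 0.77. The rise also lost its call with upper-quartile factors and with the LFD and HFD libraries fitted alone (edgeR adjusted p = 0.063 and 0.053).

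Sqle came next. It was measured at 19.8, 18.8 and 15.7 CPM in LFD, at 22.0, 23.9 and 26.1 CPM in HFD and at 20.8, 13.4 and 19.0 CPM in SW libraries. All HFD libraries lay above all others, yet neither the difference of 0.41 ± 0.17 between HFD and LFD (edgeR adjusted p = 0.070) nor that of -0.45 ± 0.17 between SW and HFD (edgeR adjusted p = 0.067) passed. The difference between HFD and LFD passed without a filter on low counts and with these 2 groups fitted alone (edgeR adjusted p = 0.0495 and 0.033). It also passed without either of 2 SW libraries (edgeR adjusted p = 0.047 and 0.025). The difference between SW and HFD passed with limma-voom (adjusted p = 0.045) and without 1 SW library, at -0.57 (edgeR adjusted p = 0.040).

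The other 4 genes differed by less than the libraries of a group did. Hmgcs1 was measured at 332, 263 and 278 CPM in LFD and at 252, 445 and 360 CPM in HFD libraries. The HFD libraries thus spanned the whole LFD range, and the log2 difference was 0.28 ± 0.23 (edgeR adjusted p = 0.34). Insig1 spread still wider, from 163 to 336 CPM in LFD, from 168 to 351 CPM in HFD and from 122 to 261 CPM in SW libraries. Its difference between HFD and LFD was 0.05 ± 0.35 (edgeR adjusted p = 0.91). Idi1 differed by 0.14 ± 0.17 and Fdps by 0.14 ± 0.25.

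**Figure D2:**
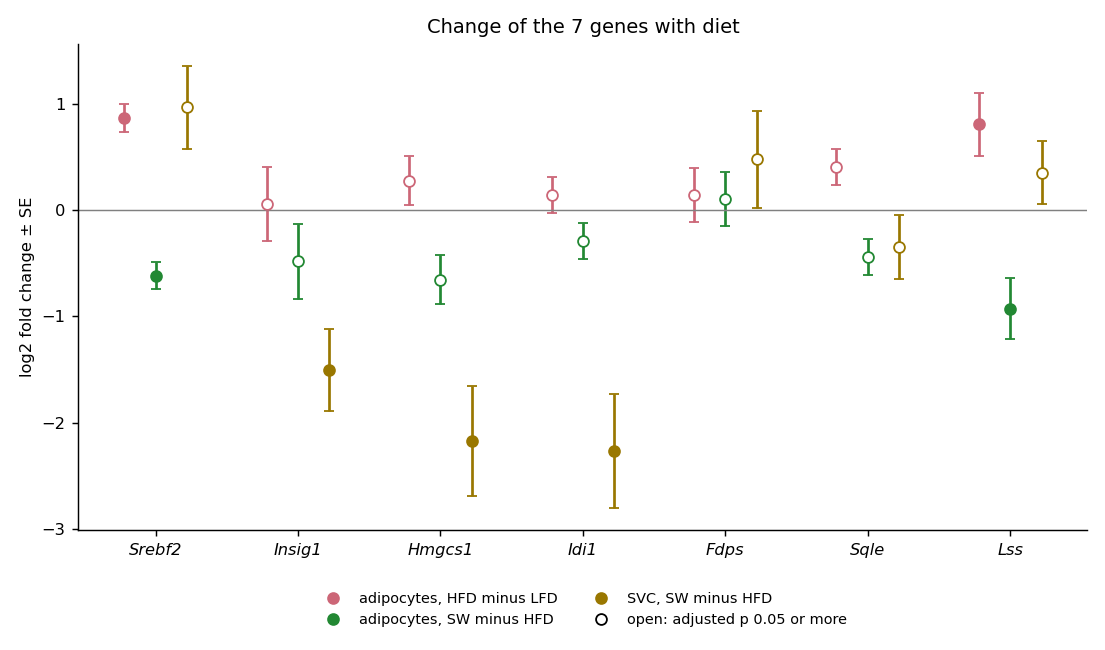
Log2 fold change ± SE of each gene (y axis) for 3 comparisons; filled points have an adjusted p-value under 0.05. In adipocytes Srebf2 and Lss were called in both comparisons, in opposite directions, and in SVC Insig1, Hmgcs1 and Idi1 were called lower in SW.

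From HFD to SW, 2 of the 7 genes, again Srebf2 and Lss, fell in adipocytes and none rose. Of all genes 31.4% were called, 15.6% higher and 15.9% lower in SW. SW and HFD libraries did not overlap for 3 of the 7 genes, Srebf2, Sqle and Lss, against 48.6% of all genes. The median of the 7 genes was -0.48, against 0.01 for all genes. In the same comparison 5 of the 11 macrophage markers fell and 6 of the 10 adipocyte markers rose, as did 2 of 4 B cell and 1 of 4 T cell markers tested, and their part was not tested. Hmgcs1 was measured at 215, 176 and 281 CPM in SW libraries, a difference from HFD of -0.66 ± 0.23 that did not pass (edgeR adjusted p = 0.054). It did pass with DESeq2 (adjusted p = 0.019), without a filter on low counts (edgeR adjusted p = 0.033), and without either 1 HFD library or 1 SW library, at -0.85 in both (edgeR adjusted p = 0.032 and 0.037). Insig1 differed by -0.48 ± 0.35, Idi1 by -0.29 ± 0.17 and Fdps by 0.10 ± 0.25. Both comparisons use the same HFD libraries, so their opposite signs are not independent of each other.

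Between SW and LFD adipocytes, edgeR called none of the 7 genes, none had an unadjusted p-value under 0.05, and DESeq2 and limma-voom called none either. In this comparison 17.1% of all genes were called. The log2 differences ran from -0.43 ± 0.35 for Insig1 to 0.25 ± 0.13 for Srebf2.

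Within a diet the 7 genes tended to share their high and low libraries in adipocytes. One LFD library was the highest of the 3 for all 7 genes and for 39.9% of all genes tested. It was also the smallest, with 6142895 counts. In HFD mice 1 library was the highest for 5 of the 7 genes, all but Srebf2 and Sqle, and for 37.8% of all genes. In SW mice 1 library was the lowest for 6 of the 7, all but Srebf2, and for 30.0% of all genes. The SVC libraries showed no such sharing, since the highest library of the 7 genes was split 4 and 3 between the HFD libraries and 1, 3 and 3 between the SW libraries.

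Over the 9 adipocyte libraries, the pair of genes with the most similar profile was Idi1 and Sqle, whose log2 CPM, each centred on its mean, differed by a root mean square of 0.16. Hmgcs1 and Idi1 followed at 0.19. Srebf2 and Insig1, the regulator and the feedback inhibitor, were the least similar pair at 0.57. Among 12433 other genes, whose log2 CPM averaged 1 or more, the 5 nearest to the mean profile of the 7 genes were Pafah2, Adra1a, Pvrl3, Dock5 and Tmem38b. Their root mean square difference from that profile was 0.11 to 0.13, against a median of 0.44 for the 12433 genes. It was 0.12 for Idi1, the nearest of the 7. Idi1 is itself part of that mean, so its value cannot be compared directly with those of other genes. Pafah2 encodes a phospholipid acetylhydrolase and Adra1a an adrenergic receptor.

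The other enzymes of cholesterol synthesis did not move as a block in adipocytes. Of 15 such genes, 3 rose with HFD and 4 fell, and 8 did not pass; their median log2 fold change was 0.0035, against -0.03 for all genes. Dhcr7, which catalyses the last step of the Kandutsch-Russell branch, rose by 1.32 ± 0.21 on the log2 scale and Hsd17b7, a sterol ketoreductase, by 0.82 ± 0.24. Hsd17b7 lost this call without its lowest LFD library, at 0.66, and without 1 HFD library, at 0.68 (edgeR adjusted p = 0.058 and 0.060). Dhcr7 was measured at 18.7, 13.8 and 12.7 CPM in LFD, at 30.4, 44.1 and 37.5 CPM in HFD and at 21.2, 15.7 and 23.3 CPM in SW libraries. Its HFD libraries lay above all others, and the LFD and SW libraries overlapped. Fdft1, the squalene synthase that uses the product of Fdps, fell by 1.04 (SE 0.20) and the mevalonate enzyme Pmvk fell by 0.98 (SE 0.28), a call that was lost without 1 HFD library (edgeR adjusted p = 0.052). From HFD to SW, 2 of the 15 fell and 2 rose, with a median of 0.087. Hsd17b7 fell by 0.96 (SE 0.23) and Dhcr7 fell by 0.90 (SE 0.20). Fdft1 rose by 0.84 ± 0.20 and Lbr, a nuclear envelope protein with sterol reductase activity, by 0.49 ± 0.13. Of the 9 fits that left out 1 library, Hsd17b7 was called in 8, Fdft1 in 8 and Lbr in 6 for this comparison.

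Of 11 genes for SREBP processing and sterol sensing, 4 rose with HFD in adipocytes and 1 fell, with a median of 0.24. The gene that fell was Srebf1, whose product SREBP1 drives mainly fatty acid synthesis. It fell by 0.81 (SE 0.22, edgeR adjusted p = 0.011), while Srebf2 rose, and with the GC offset it did not pass, at -0.55 (edgeR adjusted p = 0.059). Mbtps2, the protease that makes the second cut in SREBP, rose by 0.77 ± 0.18 and Erlin1, a protein of lipid rafts in the endoplasmic reticulum, by 0.58 ± 0.12. Scap differed by 0.06 ± 0.10 and Insig2 by -0.29 ± 0.16, and neither passed. With the GC offset Scap did pass, at 0.35 (edgeR adjusted p = 0.015), and from HFD to SW at -0.32 (edgeR adjusted p = 0.036). Insig2 passed without 1 SW library and with the LFD and HFD libraries fitted alone (edgeR adjusted p = 0.040 and 0.046). From HFD to SW 4 of the 11 fell and none rose, with a median of -0.25, led by Erlin2 at -0.46 ± 0.12 and Faf2, which helps to extract proteins from that membrane, at -0.37 ± 0.11. Of the 9 fits that left out 1 library, Erlin2 was called in 7 and Faf2 in 5, and Faf2 also lost its call with upper-quartile factors (edgeR adjusted p = 0.054). Srebf1 differed by 0.17 ± 0.21 in that comparison.

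Of 5 genes for sterol uptake and transport, 2 rose with HFD and 1 fell, with a median of 0.47. Npc1, which moves cholesterol out of lysosomes, rose by 2.01 ± 0.16. It was measured at 25.2, 21.3 and 20.2 CPM in LFD, at 106, 69.6 and 92.1 CPM in HFD and at 46.3, 51.0 and 47.6 CPM in SW libraries, with no overlap between diets. Tmem97, a membrane protein that binds sterols, rose by 0.53 ± 0.14, and Mylip, a ubiquitin ligase, fell by 0.95 (SE 0.22). From HFD to SW 2 of the 5 fell, Npc1 at -0.88 ± 0.15 and the sterol carrier gene Stard4 at -0.88 ± 0.20, with a median of -0.14 for the 5. Npc1 stayed 1.13 ± 0.16 above LFD in SW mice. Of 6 genes of the non-sterol isoprenoid branch, 2 rose with HFD, Pdss1 by 0.66 ± 0.21 and Nus1 by 0.30 ± 0.11, with a median of 0.12. Of the 9 fits that left out 1 library, Pdss1 was called in 5 and Nus1 in 2, and both lost the call with the GC offset (edgeR adjusted p = 0.076 and 0.19). Coq2, for coenzyme Q, fell by 0.86 (SE 0.14) and rose by 0.47 ± 0.13 after the switch, when the median of the 6 was -0.08. That rise was called in 6 of the 9 fits that left out 1 library and was lost with the GC offset, at 0.37 (edgeR adjusted p = 0.054). In all, 11 of these 37 genes rose and 7 fell with HFD, and 3 rose and 8 fell from HFD to SW, beside the shares of all genes given above. With HFD all 11 macrophage markers rose and 8 of the 10 adipocyte markers fell. From HFD to SW 5 macrophage markers fell and 6 adipocyte markers rose. The part of either set of markers in these changes was not tested.

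**Figure D3:**
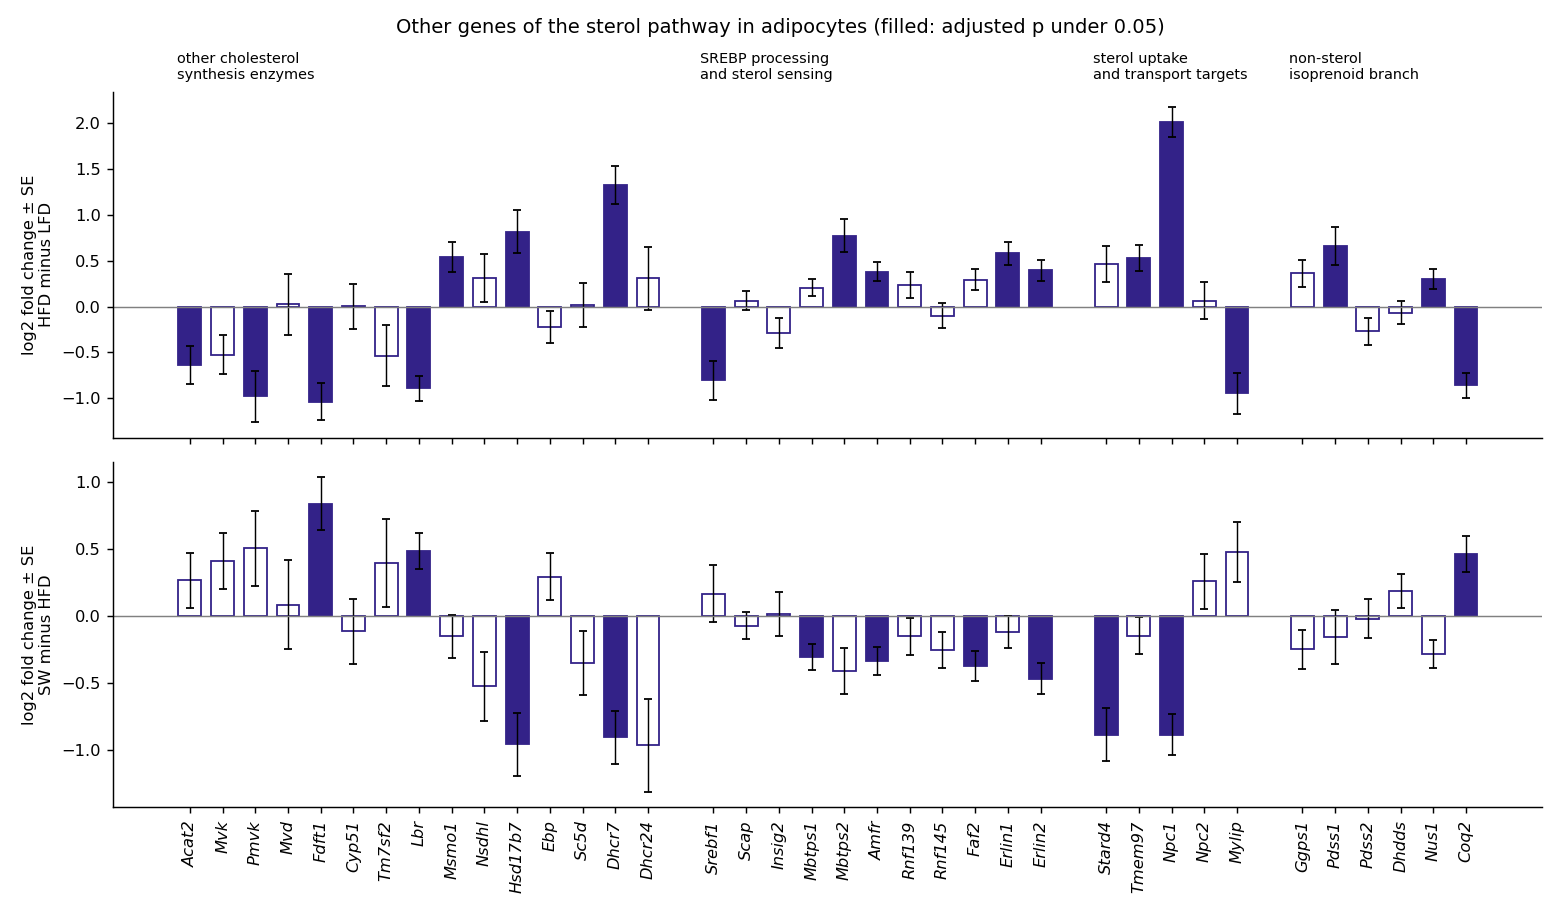
Log2 fold change ± SE in adipocytes of 37 other genes of the pathway in 4 lists, from LFD to HFD (top) and from HFD to SW (bottom); filled bars have an adjusted p-value under 0.05. In the top panel 11 filled bars point up and 7 down, Npc1 highest at 2.01 and Fdft1 lowest at -1.04.

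In SVC, 3 of the 7 genes, Insig1, Hmgcs1 and Idi1, were called lower in SW than in HFD mice. Of all 16319 genes tested 17.5% were called, and 11.7% of all 16319 were called lower. Hmgcs1 was measured at 45.7 and 24.3 CPM in the HFD libraries and at 4.74, 12.8 and 5.37 CPM in the SW libraries. Idi1 was measured at 14.3 and 12.8 CPM in HFD and at 1.55, 4.79 and 1.86 CPM in SW libraries, the latter from 15, 116 and 17 counts. Insig1 was measured at 47.5 and 24.8 CPM in HFD and at 11.6, 17.0 and 9.42 CPM in SW libraries. For all 3 genes every SW library lay below both HFD libraries. The same SW library was the highest of its group for these 3 genes and for 42.5% of all genes. SW and HFD libraries of SVC did not overlap for 5 of the 7 genes, in one direction or the other. The share of all genes without overlap was not computed for SVC, where groups of 2 and 3 libraries separate easily. The log2 fold changes were -2.17 ± 0.52 for Hmgcs1, -2.27 ± 0.54 for Idi1 and -1.50 ± 0.39 for Insig1 (edgeR adjusted p = 0.043, 0.043 and 0.047).

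These calls were weak. None of the 3 passed without any 1 of the SW libraries. Those fits called few genes of any kind, 0 of 16510, 0 of 15716 and 593 of 16532. With all libraries 2849 of 16319 were called, so the loss of calls was not particular to these 3 genes. The fold changes of the 3 kept their sign in every fit that left out 1 library. Without the HFD library of 6.34% mitochondrial counts, which leaves 1 HFD library, they were -1.57 for Hmgcs1, -2.12 for Idi1 and -0.88 for Insig1. An offset for GC content, which left no gene at all called by edgeR among 16149 and 4531 with an unadjusted p-value under 0.05, moved them to -1.003, -0.997 and -1.17.

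Srebf2 lay the other way in SVC, at 67.1 and 155 CPM in HFD and at 231, 183 and 236 CPM in SW libraries, with no overlap, a difference of 0.96 ± 0.39 that did not pass (edgeR adjusted p = 0.11). It ran from 0.56 to 1.70 with 1 library left out, and it passed without the HFD library of 33.5% mitochondrial counts, at 1.70 (edgeR adjusted p = 0.012), and with DESeq2 (adjusted p = 0.043). Sqle was measured at 11.2 and 11.0 CPM in HFD and at 9.69, 9.63 and 6.79 CPM in SW libraries, a difference of -0.35 ± 0.30. Fdps differed by 0.47 ± 0.45 and Lss by 0.35 ± 0.29, with overlapping groups. The single SVC LFD library, which allows no test, had the highest Srebf2 of all at 322 CPM, with 19.6 CPM of Hmgcs1, 16.2 CPM of Insig1 and 5.76 CPM of Idi1. For these last 3 genes it lay below both HFD libraries.

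Adipocytes and SVC differed in how 3 of the 7 genes changed after the switch from HFD, beside 27.1% of 17441 genes tested in a fit of all 15 libraries. The difference, adipocytes minus SVC, was -1.66 ± 0.40 for Srebf2 (edgeR adjusted p = 0.0089), 1.79 ± 0.46 for Idi1 (edgeR adjusted p = 0.013) and -1.37 ± 0.44 for Lss (edgeR adjusted p = 0.035). Srebf2 and Lss thus went down with the switch in adipocytes relative to SVC, and Idi1 went down more in SVC. Only Srebf2 kept its call in all 15 fits without 1 library and in all 7 alternatives. Idi1 lost it with the GC offset, at 0.78 (edgeR adjusted p = 0.21), and Lss in 7 of the 15 fits. Hmgcs1 differed by 1.35 ± 0.52 and did not pass (edgeR adjusted p = 0.071).

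Set side by side on the scale of that fit, adipocytes held more RNA of most of these genes than SVC. In HFD mice 6 of the 7 differed between fractions, beside 29.1% of all genes, 5 of them higher in adipocytes. Hmgcs1 was higher by 3.04 ± 0.44 on the log2 scale, Insig1 by 2.54 ± 0.45, Lss by 1.67 ± 0.34, Idi1 by 1.64 ± 0.35 and Sqle by 0.80 ± 0.22. Srebf2 was lower in adipocytes, by -1.14 ± 0.29 (edgeR adjusted p = 0.010), and Fdps differed by -0.06 ± 0.40. The value of Srebf2 rests on 1 library, since without the SVC HFD library of 33.5% mitochondrial counts it was -0.30 (edgeR adjusted p = 0.35), and with the GC offset -0.51 (edgeR adjusted p = 0.12). Sqle lost its call without either SVC HFD library and without 1 of the adipocyte HFD libraries.

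In SW mice 5 of the 7 differed, beside 68.4% of all genes. Hmgcs1 was higher in adipocytes by 4.39 ± 0.40, Idi1 by 3.43 ± 0.34, Insig1 by 3.42 ± 0.40 and Sqle by 0.59 ± 0.20, and Srebf2 was lower by -2.79 ± 0.28. Each of these but Sqle kept its call without any 1 library and in all 7 alternatives. Lss, at 0.30 ± 0.29, and Fdps, at -0.50 ± 0.36, did not pass.

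**Figure D4:**
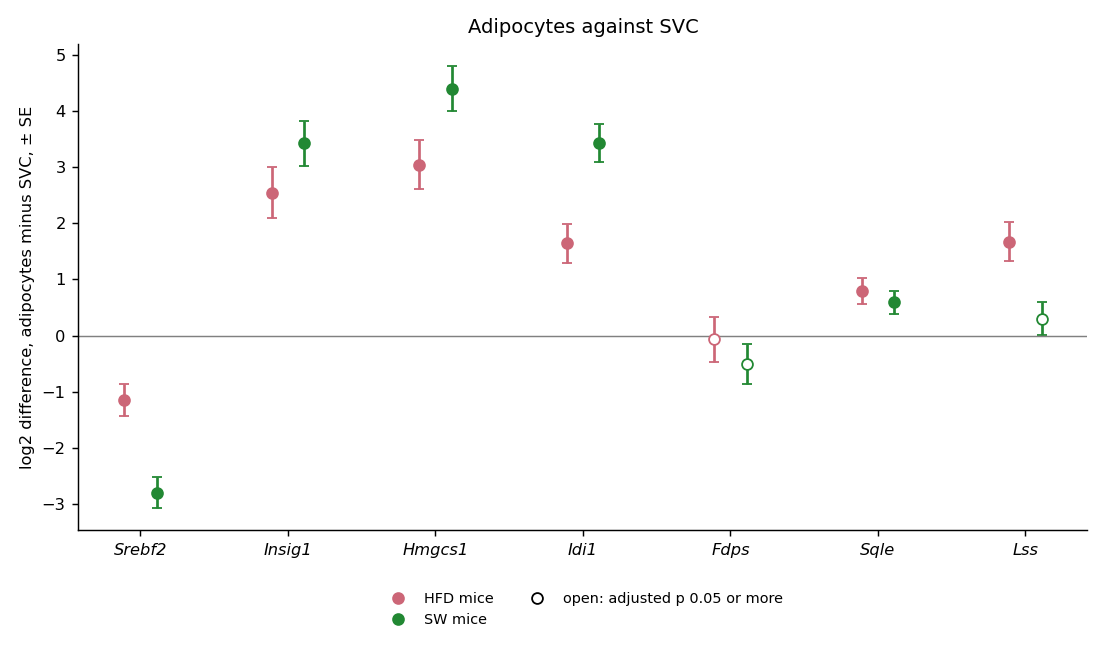
Log2 difference ± SE between adipocytes and SVC (y axis, positive where adipocytes are higher) for the 7 genes in HFD and SW mice; filled points have an adjusted p-value under 0.05. Srebf2 lies below 0 in both diets, at -1.14 and -2.79, and Hmgcs1 is the highest point in both, at 3.04 and 4.39.

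Ratios of counts within a library need no scaling between libraries. For each Srebf2 count, adipocyte libraries held 3.93 to 8.48 Hmgcs1 counts and SVC libraries 0.0205 to 0.681. Insig1 gave 2.62 to 8.57 in adipocytes and 0.0400 to 0.708 in SVC, and Idi1 0.657 to 1.46 and 0.00668 to 0.213. For each of the 6 genes the lowest adipocyte ratio was above the highest SVC ratio, Fdps included, at 0.710 to 2.13 against 0.176 to 0.490. In SVC the ratio to Srebf2 was lower in every SW than in every HFD library for all 6 genes, from 0.0205, 0.0228 and 0.0700 against 0.157 and 0.681 for Hmgcs1 to 0.0530, 0.0555 and 0.0558 against 0.0672 and 0.122 for Lss. In adipocytes the Idi1 ratio of every LFD library, 1.26 to 1.46, was above every HFD library, 0.657 to 1.12. The same held for Sqle, at 0.474 to 0.562 against 0.343 to 0.441. Srebf2 is in the denominator of all 6 ratios, so they are not independent of each other. Srebf2 itself lay higher in SW than in HFD libraries of SVC, and in HFD than in LFD libraries of adipocytes. A lower ratio thus need not mean less of the gene. From HFD to SW in SVC, Fdps and Lss differed by 0.47 and 0.35 on the log2 scale without passing. From LFD to HFD in adipocytes, Idi1 and Sqle differed by 0.14 and 0.41 without passing. The share of all genes with such separated ratios was not computed.

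**Figure D5:**
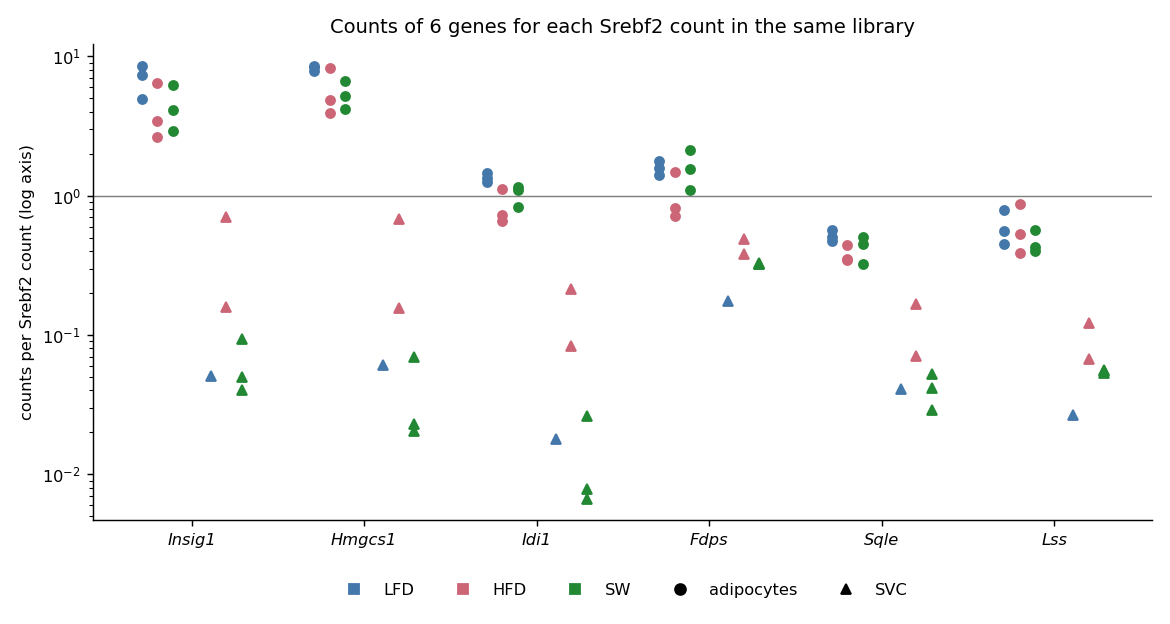
Counts of 6 genes per Srebf2 count in the same library (y axis, log scale); circles are adipocyte and triangles SVC libraries, coloured by diet. All circles of a gene lie above all its triangles, with Fdps closest, at 0.710 against 0.490.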

How the data were processed

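RNA of adipocytes and SVC was sequenced with TruSeq libraries on an Illumina instrument. The labels list paired-end and single runs, and 8 of the 18 libraries they name have both. Run type differs between groups: adipocyte SW libraries are all paired-end only, all SVC SW libraries have both, and some SVC HFD libraries are single only. The column names do not give the run type, and its part was not tested. The authors aligned the reads with Bowtie2 to mm9 and estimated counts per gene with RSEM, per the labels' processing notes, which give no versions. The tables the authors deposited hold those estimated counts without normalization, as whole numbers. RSEM splits reads that fit several similar transcripts, and values of genes with close copies, such as Idi1 beside Idi2, are less certain. Columns were tied to diet groups by name, and 3 columns of values whose names gave no group of the labels were not used. No 2 libraries of a group agreed within counting noise. Where a gene has no count in a library, up to 3 counts of its total remain possible.

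Each fraction, and both together, were fitted in R 4.3.3 by a robust quasi-likelihood model of group means without covariates (edgeR 4.0.16), with TMM scaling and genes kept by filterByExpr at a count minimum of 10. The fits were tested on simulated data. Alternatives were DESeq2 1.42.0, limma-voom (limma 3.58.1), RLE and upper-quartile factors, no filter, at least 10 counts in every library, a GC content offset, only the 2 groups compared, and each library left out. SVC LFD, with 1 library, was not tested. The 7 genes, the 4 pathway lists and the 7 marker lists were chosen with earlier results of these data known. Beside the 7 genes the text names, per pathway list and in HFD against LFD and SW against HFD, the 2 largest rises and 2 largest falls among called genes, always Srebf1, Scap and Insig2, and the 5 genes nearest in profile over the 9 adipocyte libraries. Gene positions, lengths and GC content are from GENCODE M21 (GRCm38) and not from mm9. Tables and plots were made with Python 3.11.15, pandas 2.3.3 and matplotlib 3.10.9. Some genes of the pathway lists are not reported here, and list counts leave them out.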

Additional observations from a re-analysis of the deposited data

Results flagged for a closer look

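For 3 of the 7 genes the fractions differed in the change from HFD to SW, by the test of the difference itself in edgeR's fit of all 15 libraries. The log2 difference, adipocytes minus SVC, was -1.66 for Srebf2, which fell in adipocytes and differed by 0.96 in SVC without passing there. It was 1.79 for Idi1, which was called lower in SVC at -2.27 and differed by -0.29 in adipocytes without passing there. It was -1.37 for Lss, which fell in adipocytes and differed by 0.35 in SVC without passing there. All 3 rest on 2 SVC HFD libraries that stood apart from each other. No group had the 4 libraries that a check for single outlying libraries needs.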

How the results depend on the processing

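No paired analysis was possible because the replicate numbers of the labels are not carried by the columns. Of 1556 values of single genes under the alternatives, 1411 kept their direction and side of the threshold, 84 lost the call, 37 gained it and 24 changed sign, none of the last for a called gene. The number of the 7 genes called in HFD against LFD adipocytes, 2, became 1 with upper-quartile factors, and the 3 called in SVC became 1 with limma-voom, 1 with upper-quartile factors and 0 with the GC offset. Leaving out 1 library gave 1 to 3 genes in HFD against LFD, 1 to 3 in SW against HFD, 0 to 5 in SVC and 2 to 5 for the difference between fractions, the 5 without the SVC HFD library of 33.5% mitochondrial counts. SW against LFD stayed at 0 in all of them. The number of all genes called moved too. In SVC it was 2849 of 16319 with all libraries, and 0 of 16510, 0 of 15716 and 593 of 16532 without 1 SW library. The loss of calls in SVC was thus not particular to the 7 genes. The 5 comes from fits that leave 1 SVC HFD library, so nothing is concluded from it. Sign changes by setting were Insig1 (HFD against LFD) at -0.041 and Scap (the same) at -0.032 with upper-quartile factors, Fdps (fractions in HFD) at 0.14 with limma-voom and 0.014 with the GC offset, Srebf1 (SW against HFD) at -0.044 with the GC offset, and Insig2 (SW against HFD) at -0.0024 with limma-voom and -0.022 without a filter. With 1 library left out, Fdps ran from -0.067 to 0.32 (HFD against LFD), -0.15 to 0.30 (SW against HFD), -0.0091 to 0.45 (SW against LFD), -0.035 to 1.47 (SVC), -1.45 to 0.18 (difference between fractions) and -0.68 to 1.05 (fractions in HFD). Insig1 ran from -0.21 to 0.33 (HFD against LFD), Insig2 from -0.14 to 0.19 and Srebf1 from -0.019 to 0.35 (both SW against HFD), and Sqle from -0.17 to 0.13 and Lss from -0.32 to 0.21 (both SW against LFD). The cause was not tested. The lowest counts, 15 to 116 of Idi1 in SVC of SW mice, limit what can be said there.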
